A study of Mus musculus with 4 samples.

Results

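A set of 9 B lineage genes was followed among the 24706 genes measured in each of 4 mouse RNA-seq libraries. They were taken by symbol: Cd79a, Cd79b, Ms4a1, Ebf1, Pax5, Vpreb1, Vpreb3, Igll1 and Rag1. Of these 9 genes, 4 were grouped as early (Rag1, Vpreb1, Igll1 and Ebf1) and 5 as later (Cd79a, Cd79b, Ms4a1, Pax5 and Vpreb3). The libraries were labelled myeloid cells, with 2 of genotype wt and 2 of genotype cko, and the study asked what the loss of PD-1, encoded by Pdcd1, in myeloid cells does to these cells. Per the study, LoxP sites were placed around an exon of Pdcd1, and its results compare PD-1 f/f mice with PD-1 f/f mice that carry LysM-Cre. Its sequencing methods name the groups wild-type and PD-1 knockout, so whether the wt mice carried the floxed allele is not settled by the sources. LysM-Cre drives recombination from the lysozyme gene Lyz2 in myeloid cells, so the deletion is not directed at B cells. The methods give the source as liver of P2 mice, while the study's results give CD11b+ cells sorted from liver of P3 mice, and the labels give neither the age nor the sort. Strain, sex and the number of animals behind a library are not given in the sources used here, so a p-value measures only the spread between these libraries.

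B cells form in the fetal and neonatal liver before the bone marrow takes over. The transcription factors E2A, Ebf1 and Pax5 set up and hold B lineage identity, and the Rag1 and Rag2 recombinase joins the immunoglobulin gene segments. A rearranged heavy chain first pairs with the surrogate light chain, made of VpreB and lambda5 (Igll1), and signals with Cd79a and Cd79b as the pre-B cell receptor. After light chain rearrangement the same signalling chains serve the mature B cell receptor, and Ms4a1 (CD20) appears on the surface. The names early and later follow the grouping used here and are not strict stages, since Cd79a, Cd79b and Pax5 are already transcribed in progenitors.

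The files hold FPKM, fragments per kilobase of transcript and per 1000000 counted reads, and whole read numbers could be recovered from them for 22578 genes (91.4%). The libraries held 17691507 to 22212410 counted reads. Of the markers of the label, Lyz2 was very abundant, at 31306 and 32147 FPKM in wt and 10422 and 8127 FPKM in cko. Since Cre is driven from Lyz2, its level in cko is not read here as a measure of myeloid cells. Itgam, which encodes CD11b, was at 48.5 to 54.3 FPKM. The targeted gene Pdcd1 was at 28.5 and 34.7 FPKM in wt and at 17.1 and 21.4 FPKM in cko (log2 fold change -0.69, unadjusted p = 0.0114, adjusted p = 0.218, limma). The library wt 2 stood apart by its Y-linked transcripts, with Ddx3y at 24.9 FPKM against at most 0.00866 FPKM in the others, and by Xist at 0.0119 FPKM against 4.91 to 7.98 FPKM. Sex therefore differed within wt. It was also uneven between the groups, since both cko libraries were like wt 1 in these genes, and its part was not tested. The B lineage genes were a small part of every library. Their summed reads were 2289 in wt 1, 2389 in wt 2, 1234 in cko 1 and 1477 in cko 2. Per 1000000 counted reads (RPM) this was 103 (95% exact interval 98.9 to 107) and 127 (122 to 132) in wt against 65.8 (62.2 to 69.6) and 83.5 (79.3 to 87.9) in cko, and the intervals cover counting error only. Both cko libraries lay below both wt libraries, outside their counting intervals. In bulk RNA, fewer cells of a type and less RNA per cell cannot be told apart.

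The promoter windows of Rag1, Vpreb1, Igll1, Cd79a and Vpreb3, which carry known control motifs of the B lineage, are shown first. RefSeq (GRCm38.p6) gave promoters for 7 of the 9 genes, in 8 windows since Ebf1 has a pair of starts, and Cd79b and Ms4a1 had no entry. Each window is the 250 bases before the start, read 5′ to 3′ on the gene's strand, and capitals mark the motif matches on either strand. The motifs searched were the E-box CAGGTG bound by E2A, the pair CCCNNGGG bound by Ebf1, the octamer ATTTGCAT bound by Oct factors, the core GAGGAA bound by PU.1 (TTCCTC when read on the other strand) and the TATA box TATAAA. No motif matches overlapped one another in these windows.

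Rag1, chr2:101649533-101649782, minus strand, with an E-box, and Vpreb1, chr16:16869256-16869505, minus strand, with an E-box next to a PU.1 core:
Rag1: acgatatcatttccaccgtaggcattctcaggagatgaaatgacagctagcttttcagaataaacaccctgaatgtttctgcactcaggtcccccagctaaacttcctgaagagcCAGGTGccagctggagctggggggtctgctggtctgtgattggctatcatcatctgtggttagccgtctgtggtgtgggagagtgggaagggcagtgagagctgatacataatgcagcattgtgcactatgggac
Vpreb1: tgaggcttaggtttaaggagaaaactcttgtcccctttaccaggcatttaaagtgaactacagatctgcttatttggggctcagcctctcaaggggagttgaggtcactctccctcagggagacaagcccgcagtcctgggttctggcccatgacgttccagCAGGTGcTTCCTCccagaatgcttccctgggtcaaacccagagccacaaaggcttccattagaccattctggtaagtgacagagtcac

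Igll1, chr16:16863986-16864235, minus strand, with an Ebf1 pair far from the start and an E-box close to it, and Cd79a, chr7:24897247-24897496, plus strand, with an E-box and a PU.1 core:
Igll1: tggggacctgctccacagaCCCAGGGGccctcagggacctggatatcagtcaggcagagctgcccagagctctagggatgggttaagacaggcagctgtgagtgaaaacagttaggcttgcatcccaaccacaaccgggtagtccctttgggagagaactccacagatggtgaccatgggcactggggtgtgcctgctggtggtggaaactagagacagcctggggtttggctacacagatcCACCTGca
Cd79a: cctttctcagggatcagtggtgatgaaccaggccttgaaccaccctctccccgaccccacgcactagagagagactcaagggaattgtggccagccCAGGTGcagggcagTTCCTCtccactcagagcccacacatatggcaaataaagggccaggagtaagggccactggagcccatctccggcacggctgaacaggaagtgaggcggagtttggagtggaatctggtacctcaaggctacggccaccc

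Vpreb3, chr10:75948050-75948299, plus strand, the only one of the 8 windows with an octamer:
Vpreb3: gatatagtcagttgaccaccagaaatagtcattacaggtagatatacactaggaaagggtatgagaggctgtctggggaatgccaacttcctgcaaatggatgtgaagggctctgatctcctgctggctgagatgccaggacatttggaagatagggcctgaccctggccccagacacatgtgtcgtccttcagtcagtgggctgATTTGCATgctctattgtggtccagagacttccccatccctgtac

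The E-box was found in 4 of the 7 genes with a promoter, Rag1, Vpreb1, Igll1 and Cd79a, and in 17.2% of 32851 promoter windows of the same length. It began 135 bases before the start of Rag1, 154 before Cd79a, 88 before Vpreb1 and, on the reverse strand, 8 before Igll1. The PU.1 core was found in 3 of the 7 genes (Cd79a, Vpreb1 and the second start of Ebf1) and in 23.3% of all windows. The Ebf1 pair was found in Igll1 alone of the 7 genes and in 11.8% of all windows. The octamer of Vpreb3 began 45 bases before the start, and 1.60% of all windows hold one. The TATA box was in none of the 8 windows, against 12.4% of all windows, and the Pax5 window held none of the motifs. A match describes letters only, and binding was not measured.

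**Figure D1:**
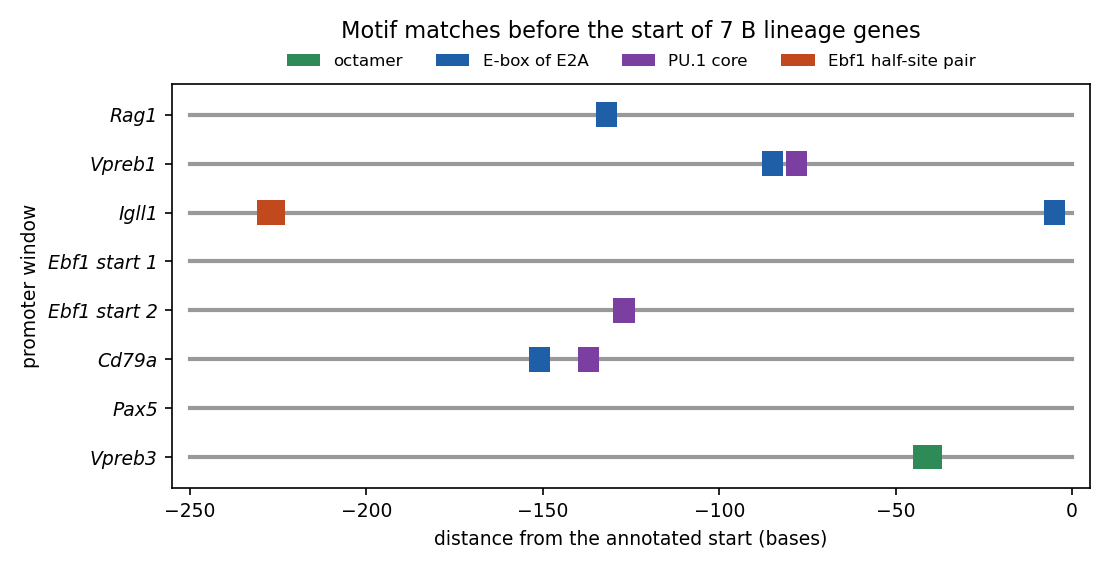
Position of motif matches in the 8 promoter windows of 7 B lineage genes; the x axis is the distance in bases from the annotated start, grey lines are the 250-base windows and coloured blocks the matches. Rag1, Vpreb1, Igll1 and Cd79a hold an E-box, and Pax5 and the first start of Ebf1 hold no match.

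Among the early genes, those of the surrogate light chain were at lower levels in both cko libraries than in both wt libraries, while the groups overlapped for Ebf1, and Rag1 was too low to test. Vpreb1 encodes the V-like part of the surrogate light chain (ENSMUSG00000059305, chr16:16868402-16870843, minus strand, GRCm38). It was at 3.24 FPKM in wt 1, 1.77 in wt 2, 0.959 in cko 1 and 1.07 in cko 2. The cko libraries were alike and below both wt libraries, and the wt libraries differed from each other by more than their counting intervals allow (80 reads in wt 1 and 37 in wt 2). The mean was 2.5 ± 1.04 FPKM in wt and 1.01 ± 0.0762 FPKM in cko (SD, 2 libraries each), a cko level of 40.5% of wt. On the log2(FPKM + 1) scale, which understates changes of low genes, the log2 fold change of Vpreb1 was -0.77 (SE 0.29, unadjusted p = 0.0402, adjusted p = 0.283, limma). Without wt 1 it was -0.46 and without wt 2 it was -1.07.

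The closest relative of Vpreb1 is Vpreb2, whose transcript is identical to it at 739 of 759 aligned bases (97.4%), so reads may have been split between the copies. Vpreb2 was at 3.46 and 1.61 FPKM in wt and at 0.124 and 0.922 FPKM in cko, on 33, 13, 1 and 7 reads. Its log2 fold change was -1.22 (SE 0.40, unadjusted p = 0.0263, adjusted p = 0.255, limma). Vpreb2 passed the filter only through wt (mean 2.54 FPKM in wt and 0.523 in cko), which favours a lower cko value. As the copies may also share reads, Vpreb2 is not separate support for Vpreb1. For both VpreB genes wt 1 was the highest library, and both cko libraries lay below both wt libraries.

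Igll1 encodes lambda5, the C-like part of the surrogate light chain, and lies 4416 bases from Vpreb1 (ENSMUSG00000075370, chr16:16860671-16863985, minus strand). It was at 2.58 FPKM in wt 1, 2.53 in wt 2, 1.11 in cko 1 and 1.91 in cko 2. The wt libraries were nearly equal, and cko 2 lay between wt and cko 1. The mean was 2.55 ± 0.0361 FPKM in wt and 1.51 ± 0.564 FPKM in cko, or 59.0% of wt. The log2 fold change of Igll1 was -0.52 (SE 0.25, unadjusted p = 0.0860, adjusted p = 0.363, limma). Without cko 1 it was -0.29.

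Ebf1 encodes the factor that specifies the B lineage (ENSMUSG00000057098, chr11:44617317-45008091, plus strand). It was at 1.09 FPKM in wt 1, 1.14 in wt 2, 1.03 in cko 1 and 1.19 in cko 2, on 189 to 237 reads. The cko libraries were the lowest and the highest of the 4, so the groups overlapped, and the cko mean was 99.5% of the wt mean. The log2 fold change of Ebf1 was -0.00 (SE 0.25, adjusted p = 0.995, limma), with a 95% interval of -0.62 to 0.61 that does not show that Ebf1 was level.

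Rag1 encodes the catalytic part of the recombinase (ENSMUSG00000061311, chr2:101638282-101649501, minus strand). It was at 0.0954 FPKM in wt 1, 0.289 in wt 2, 0.0242 in cko 1 and 0.240 in cko 2, on 14, 36, 3 and 28 reads. The groups overlapped, and the first replicate was the lower one in each group. In RPM, wt 1 was at 0.630 (95% exact interval 0.345 to 1.06) and wt 2 at 1.91 (1.34 to 2.65), so the wt libraries differed beyond counting error. Cko 1 was at 0.160 (0.0330 to 0.468) and cko 2 at 1.58 (1.05 to 2.29). Its partner Rag2, also low, had 22 and 21 reads in wt and 1 and 15 reads in cko. Rag1 did not reach the mean of 1 FPKM needed for the test. Fitted without that filter its log2 fold change was -0.08 (unadjusted p = 0.622, limma), and on recovered reads it was -1.01 (unadjusted p = 0.441, limma-voom).

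Among the later genes, the receptor chains Cd79a and Cd79b were the most abundant. These chains, Ms4a1 and Vpreb3 were lower in both cko libraries than in both wt libraries, and Pax5 was too low to test. Cd79a encodes Ig-alpha, a signalling chain of the B cell receptor (ENSMUSG00000003379, chr7:24897381-24902197, plus strand). It was at 16.4 FPKM in wt 1, 21.6 in wt 2, 10.8 in cko 1 and 12.7 in cko 2, on 294 to 592 reads. Both cko libraries lay below both wt libraries. The mean was 19.0 ± 3.66 FPKM in wt and 11.7 ± 1.38 FPKM in cko, or 61.8% of wt. The log2 fold change of Cd79a was -0.64 (SE 0.20, unadjusted p = 0.0185, adjusted p = 0.238, limma). Without wt 2 it was -0.45 (unadjusted p = 0.112, limma).

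Cd79b encodes Ig-beta, the partner of Cd79a (ENSMUSG00000040592, chr11:106311341-106314762, minus strand). It was at 23.5 FPKM in wt 1, 34.6 in wt 2, 17.6 in cko 1 and 22.4 in cko 2. The groups did not overlap, but cko 2 and wt 1 were close. The mean was 29.1 ± 7.85 FPKM in wt and 20.0 ± 3.39 FPKM in cko, or 69.0% of wt. The log2 fold change of Cd79b was -0.50 (SE 0.23, unadjusted p = 0.0813, adjusted p = 0.356, limma). Without wt 2, the library with Y-linked transcripts, it was -0.23, and without wt 1 it was -0.77. The ratio of Cd79b to Cd79a was 1.43 and 1.60 in wt and 1.64 and 1.76 in cko, with wt 2 and cko 1 almost equal.

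Ms4a1 encodes CD20, a surface protein of more mature B cells (ENSMUSG00000024673, chr19:11249675-11266241, minus strand). It was at 3.40 FPKM in wt 1, 3.13 in wt 2, 1.21 in cko 1 and 1.47 in cko 2, on 467, 365, 140 and 161 reads. Replicates were close in each group, and the groups were well apart. The mean was 3.27 ± 0.187 FPKM in wt and 1.34 ± 0.186 FPKM in cko, or 41.0% of wt. The log2 fold change of Ms4a1 was -0.87 (SE 0.21, unadjusted p = 0.00722, adjusted p = 0.214, limma), the lowest p of the 7 genes tested and rank 351 among all 10779. Ms4a1 missed the fold threshold with a pseudocount of 1 and passed the unadjusted threshold with a pseudocount of 0.1, at -1.23 (unadjusted p = 0.00692, limma), and on recovered reads, at -1.30 (unadjusted p = 0.00187, limma-voom).

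Vpreb3 encodes a VpreB-like protein that binds immunoglobulin chains inside the cell (ENSMUSG00000000903, chr10:75943057-75949657, plus strand). It was at 3.30 FPKM in wt 1, 3.03 in wt 2, 1.99 in cko 1 and 2.70 in cko 2, on 63, 49, 32 and 41 reads. The groups did not overlap, but cko 2 was close to wt 2. The cko mean was 74.0% of the wt mean. The log2 fold change of Vpreb3 was -0.33 (SE 0.21, unadjusted p = 0.182, adjusted p = 0.472, limma). Without cko 1 it was -0.17.

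Pax5 encodes the factor that commits cells to the B lineage (ENSMUSG00000014030, chr4:44524757-44710487, minus strand). It was at 0.132 FPKM in wt 1, 0.390 in wt 2, 0.229 in cko 1 and 0.326 in cko 2, on 26, 65, 38 and 51 reads. The wt libraries were the lowest and the highest of the 4, so the groups overlapped. Fitted without the filter the log2 fold change of Pax5 was 0.02 (unadjusted p = 0.878, limma), and on recovered reads it was 0.31 (unadjusted p = 0.644, limma-voom).

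In FPKM, which is per length, the order of the wt means was Cd79b, Cd79a, Ms4a1, Vpreb3, Igll1, Vpreb1, Ebf1, Pax5 and Rag1. Neighbours from Ms4a1 to Vpreb3 and from Igll1 to Vpreb1 lay within their SD, as did Pax5 and Rag1. In cko, Vpreb3 was at 2.34 ± 0.502 FPKM and stood above Ms4a1. There Ebf1, at 1.11 ± 0.113 FPKM, was above Vpreb1, at 1.01 ± 0.0762 FPKM, by less than its SD.

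**Figure D2:**
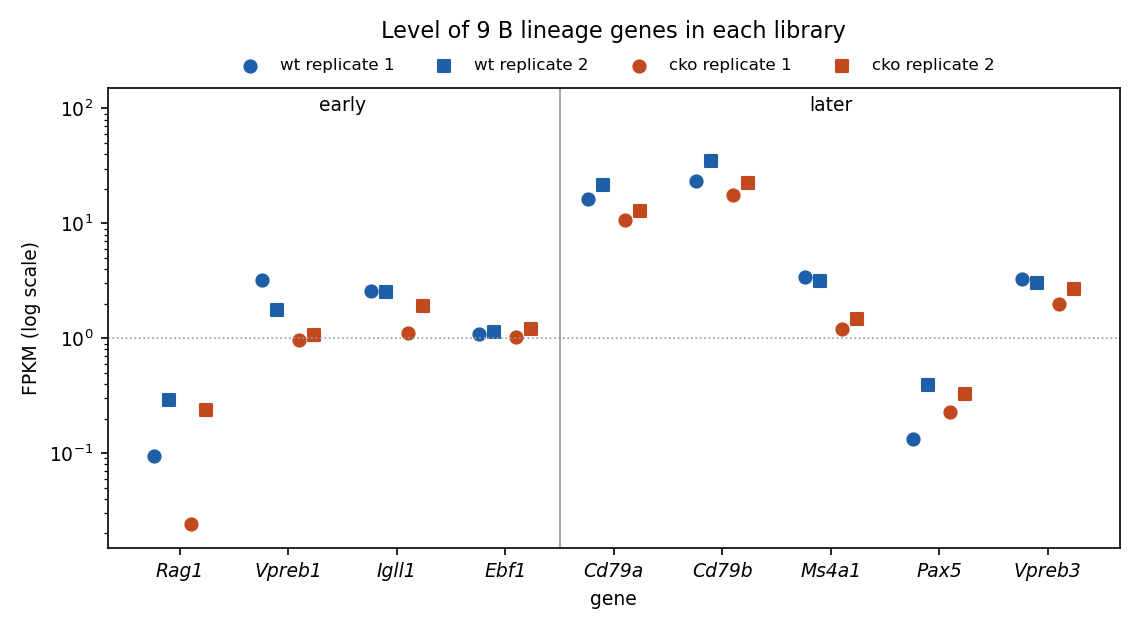
FPKM of the 9 genes (y axis, log scale) in each library; circles are replicate 1 and squares replicate 2, blue is wt and orange cko, and the dotted line is the mean of 1 FPKM needed for the test. Both cko points lie below both wt points for Vpreb1, Igll1, Cd79a, Cd79b, Ms4a1 and Vpreb3, and the groups overlap for Rag1, Ebf1 and Pax5.

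Counted together, 7 of the 9 genes passed the filter, all but Rag1 and Pax5. None passed the adjusted threshold (a log2 fold change of at least 1 in size and an adjusted p under 0.05), which 0% of the 10779 genes passed and where the lowest adjusted p was 0.129. At an unadjusted p under 0.05 the limma test named 1768 genes. No B lineage gene passed the unadjusted threshold (over 1 in size and p under 0.01), which 0.408% of all genes passed in the lower direction. With an unadjusted p under 0.05, 3 of the 7 genes (Vpreb1, Cd79a and Ms4a1) were lower in cko, against 4.95% of all genes. Both cko libraries lay below both wt libraries for 6 of the 7 genes, against 18% of all genes. The median log2 fold change of all genes was 0.09. That of the early genes tested was -0.52 (3 genes) and that of the later ones -0.57 (4 genes). A further setting removed the erythroid and hepatocyte genes and then scaled every library to the same FPKM sum. The main fit had no such scaling, and the sums were 491983 and 457127 FPKM in wt and 412778 and 403900 FPKM in cko. The removed lists held 3833 and 93.2 FPKM of wt 1, so this setting mainly changed the scaling. In it, 4 of the 7 genes were apart (against 7.98% of all genes), since Cd79b and Vpreb3 then overlapped. There 1 of the 7, Ms4a1, was lower with an unadjusted p under 0.05 (limma), against 1.83% of all genes. Leaving out cko 1 also left 1 of the 7, Ms4a1 alone, against 5.07% of all genes. Leaving out any 1 library kept 6 or 7 genes apart, against 27.9% to 30.2% of all genes. Dropping a library can only make it easier for the groups to be apart. The 6 genes apart in the main fit therefore had to stay so, and these counts are no test of stability.

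**Figure D3:**
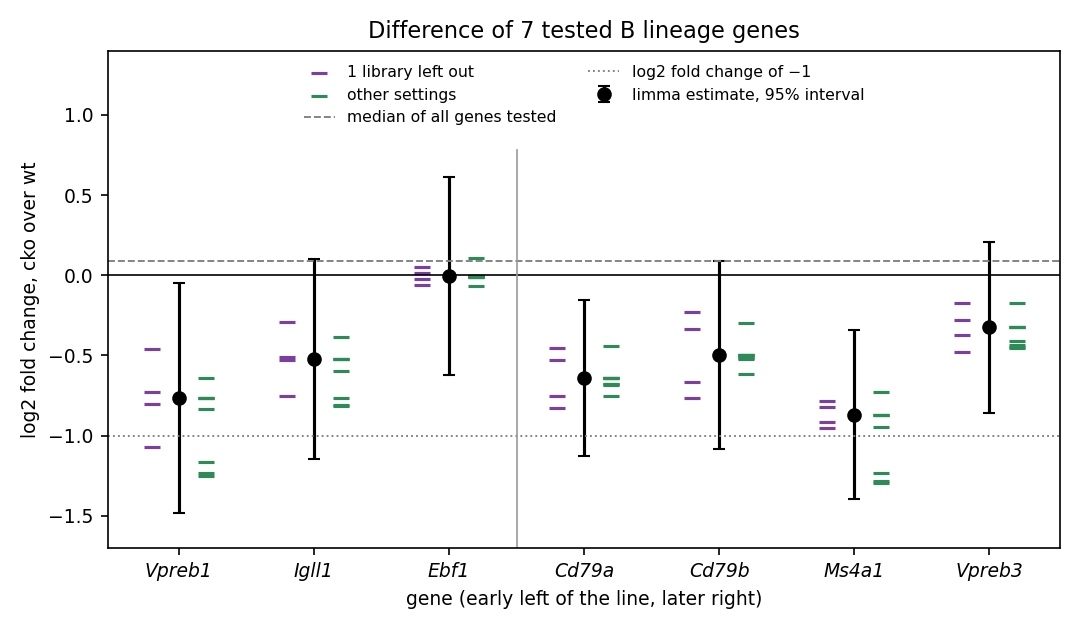
Log2 fold change of cko over wt (y axis, log2(FPKM + 1) scale) for the 7 tested genes; black points are limma estimates with 95% intervals, purple dashes leave out 1 library, and green dashes are the other settings, among them lower pseudocounts and recovered reads. Estimates of 6 genes lie below 0 in every setting drawn, and those of Ebf1 lie on both sides of 0.

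The early and later genes were then compared with each other. The summed level of the early genes was 7.0 and 5.73 FPKM in wt and 3.13 and 4.41 FPKM in cko. That of the later genes was 46.7 and 62.7 FPKM in wt and 31.8 and 39.7 FPKM in cko. Relative to the wt mean, the early sum in cko 1 and cko 2 was 0.491 and 0.692 and the later sum 0.581 and 0.724, so both sums were lower in cko, and in both cko 1 was the lower library. The early genes made up 13.0% of the sum in wt 1, 8.37% in wt 2, 8.94% in cko 1 and 10% in cko 2, and the cko shares lay between the wt shares. The mean log2(FPKM + 1) of the early genes minus that of the later genes was -1.35 in wt 1, -1.65 in wt 2, -1.38 in cko 1 and -1.38 in cko 2. The difference of the group means, cko minus wt, was 0.12, less than the pooled SD of 0.149 between replicates. With a pseudocount of 0.01 it was -0.21 and on recovered reads -0.23, and without wt 2 it was -0.029, so its sign depended on the pseudocount and on wt 2. With 2 libraries against 2 an exact permutation test cannot go below a two-sided p of 0.333.

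The other genes of the pathway had values on both sides of 0. Over all tested genes, 11.4% were higher at an unadjusted p under 0.05, more than the 4.95% that were lower. Of 11 genes for early lymphoid cells and recombination, 5 were tested, with 1 higher and 1 lower at an unadjusted p under 0.05 and a median log2 fold change of -0.28. The lower one was Vpreb2, which passed the filter only through its wt level. The higher one was Dclre1c, which encodes the Artemis nuclease of end joining, at 3.36 and 3.90 FPKM in wt and 5.0 and 8.28 FPKM in cko (log2 fold change 0.69, unadjusted p = 0.0386, limma). Of the other abundant genes of this list, the end-joining gene Xrcc4 had a log2 fold change of -0.32 and Rhoh, a GTPase of blood cells, one of 0.39, with groups that overlapped for Rhoh.

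Of 15 transcription factors known in the B lineage, 10 were tested, with 3 higher and 0 lower at an unadjusted p under 0.05 and a median of 0.18. Spi1, which encodes PU.1 of myeloid and B cells, was at 77.3 and 126 FPKM in wt and 264 and 145 FPKM in cko (log2 fold change 0.98, unadjusted p = 0.0359, limma). Ikzf1, which encodes Ikaros, was at 32.7 and 33.5 FPKM in wt and 53.1 and 53.2 FPKM in cko (0.67, unadjusted p = 0.00310, adjusted p = 0.199, limma). Irf8, shared by B cells and monocytes, had a log2 fold change of 0.39, and Tcf3, which encodes E2A, one of 0.16 with overlapping groups.

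Of 16 genes of B cell receptor signalling, 13 were tested, with 4 higher and 1 lower at an unadjusted p under 0.05 and a median of 0.35. The most abundant were ones that myeloid cells also use. Lyn, a Src family kinase, had a log2 fold change of 0.60 and Vav1, an exchange factor, one of 0.43 (unadjusted p = 0.0280 and 0.0219, limma). Ptpn6, which encodes the phosphatase SHP-1, was at 0.28 and the adaptor Pik3ap1 at 0.62 (unadjusted p = 0.111 and 0.0779, limma). Of 17 genes for the B cell surface and maturation, 11 were tested, with 1 higher and 1 lower and a median of -0.10. Cd38, an ectoenzyme also found on myeloid cells, passed the unadjusted threshold, as did 1.88% of all genes in the higher direction, at 18.6 and 13.4 FPKM in wt and 35.6 and 40.2 FPKM in cko (log2 fold change 1.21, unadjusted p = 0.00118, adjusted p = 0.183, limma). The abundant Cd24a, Cd37 and Tnfrsf13b had log2 fold changes of 0.05, 0.20 and 0.26.

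The 3 immunoglobulin constant genes with enough reads to test were each lower in both cko libraries than in both wt libraries, against 18% of all genes. Igkc, the kappa constant gene, was at 64.4 and 64.3 FPKM in wt and 33.6 and 35.1 FPKM in cko (log2 fold change -0.89, SE 0.13, unadjusted p = 0.000767, adjusted p = 0.183, limma). Ighm, the mu constant gene, was at 44.9 and 48.5 FPKM in wt and 31.3 and 35.0 FPKM in cko (-0.48, unadjusted p = 0.0181, limma). Ighd was at 2.91 and 2.52 FPKM against 1.12 and 2.2 FPKM, and Iglc2 had 8 and 7 reads against 4 and 0. Of the 3 genes tested, 2 (Igkc and Ighm) were lower at an unadjusted p under 0.05, against 4.95% of all genes.

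Of 5 plasma cell genes measured, 2 were tested, Xbp1, a factor of secretory cells, with a log2 fold change of 0.83 (unadjusted p = 0.00416, limma), and Mzb1, a chaperone of antibody secretion, with -0.39 and overlapping groups. Prdm1, which encodes Blimp-1, had 3 and 7 reads in wt and 40 and 205 in cko, and Sdc1 overlapped. Of 5 genes of fetal B cell formation, 2 were tested. Arid3a was at -0.06 and Igf2bp3 at 0.14, both with overlapping groups, and Lin28b and Igf2bp1 were under 0.4 FPKM in every library.

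Markers of several other cell types that a liver preparation could hold also summed to lower levels in cko. Relative to the wt mean, the summed FPKM of 10 T cell genes was 0.694 in cko 1 and 0.636 in cko 2, that of 6 NK cell genes 0.367 and 0.609, that of 15 erythroid genes 0.473 and 0.504 and that of 15 hepatocyte genes 0.542 and 0.651. Of the genes that passed the filter, both cko libraries were below both wt libraries for 2 of 3 T cell genes, 2 of 3 NK cell genes, 10 of 15 erythroid genes and 4 of 10 hepatocyte genes, against 18% of all genes. Of the T cell and NK cell genes counted as lower, Lck and Ncr1 passed the filter only through wt, with cko means under 1 FPKM. As for Vpreb2, this favours a lower cko value, so both counts lean that way. The others counted were Cd3d and Gzma. Within wt the sums ranged from 0.848 to 1.15 for T cells, 0.771 to 1.23 for NK cells and for erythroid genes, and 0.745 to 1.26 for hepatocytes. Some of these sums mainly follow their most abundant genes. In wt 1, Cd3d gave 6.499 of the 9.4 FPKM of the T cell sum. Gzma gave 43.99 of the 57.35 FPKM of the NK cell sum there. Hba-a1 and Hbb-bs gave 1961 and 1007 of the 3833 FPKM of the erythroid sum in wt 1. Cd3e was at 0 in all but cko 1, where it was at 0.0523 FPKM. The sum of 13 neutrophil genes was 0.742 and 0.616 of the wt mean. Of these 13 genes, 6 were lower and 5 higher in both cko libraries than in both wt libraries. Of all 10779 genes tested, 1939 were lower and 3621 higher in this way. The sum of 12 monocyte and macrophage genes was 1.06 and 1.82, against 0.922 to 1.08 within wt, so cko 1 lay within the wt range and cko 2 above it. The sum of 8 genes of plasmacytoid dendritic cells, which share several genes with B cells, was 1.15 and 1.03. This sum was 8.279 and 9.689 FPKM in wt and 10.34 and 9.252 FPKM in cko. Il3ra alone gave 5.599 and 7.055 FPKM of it in wt and 6.348 and 6.268 FPKM in cko. The sum therefore mainly follows Il3ra, and the level of these cells was not tested. The 10 most abundant genes took 46.6% and 42.3% of the FPKM in wt and 33.1% and 29.4% in cko. The part of cell makeup in the levels of the B lineage genes was not tested.

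**Figure D4:**
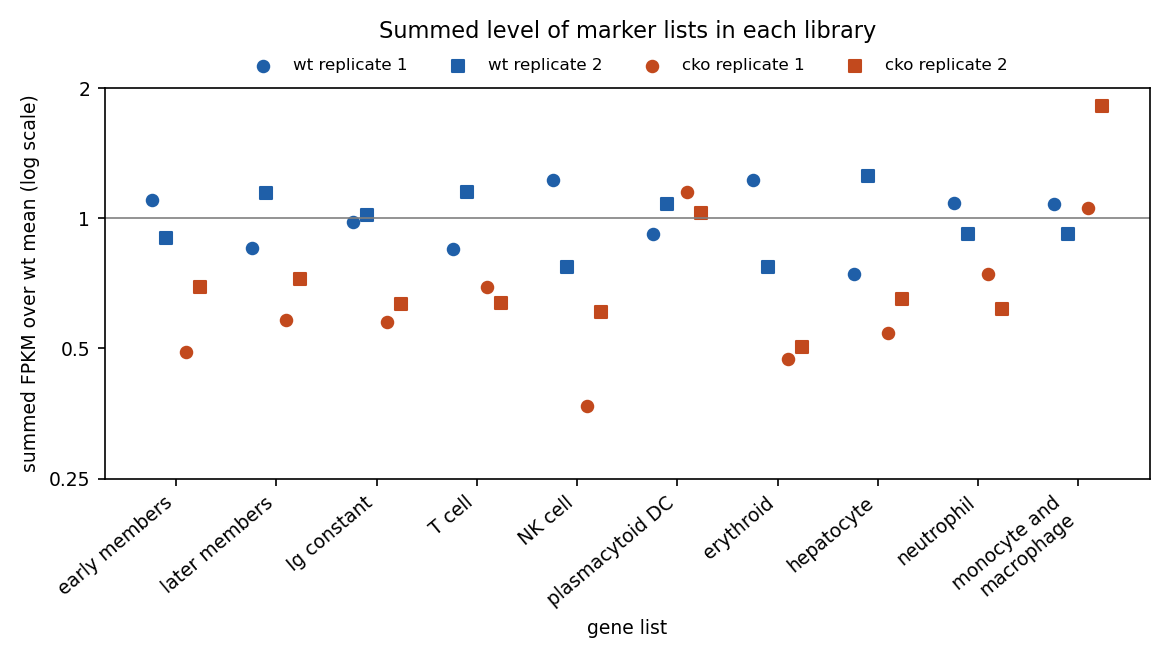
Summed FPKM of 10 gene lists in each library over the mean of the wt libraries (y axis, log scale); circles are replicate 1 and squares replicate 2, blue is wt and orange cko. The early and later B lineage genes, immunoglobulin constant, T cell, NK cell, erythroid, hepatocyte and neutrophil lists lie below 1 in both cko libraries, and in the monocyte and macrophage list cko 1 lies between the wt libraries and cko 2 above them.

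The 7 tested genes were also compared with every other tested gene by pattern. Their mean deviation from each gene's own mean was 0.25 in wt 1, 0.27 in wt 2, -0.38 in cko 1 and -0.14 in cko 2 on the log2(FPKM + 1) scale. Over these 4 libraries the nearest genes, by the root mean square difference of the deviations, were Rida (0.0164), Wdr61 (0.0260), Id3 (0.0383), Gm6467 (0.0384) and Ube2b (0.0402). Id3, an inhibitor of E proteins such as E2A, was at 23.6 and 22.3 FPKM in wt and 14.4 and 16.6 FPKM in cko. Of the 7 genes, Igll1 was nearest to their mean pattern (0.0803), and Vpreb1 and Ebf1 were farthest (0.262 and 0.261). With 4 libraries many genes share such a pattern, and 65 genes lay nearer to it than Igll1.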

How the data were processed

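Poly(A) or total RNA selection, strandedness and read length are not given in the sources used here. Per the labels, total RNA was sequenced on an Illumina HiSeq, and the submitters' processing notes name Bowtie2 2.2.3, TopHat2 2.0.12, HTSeq 0.6.0 and the build mm9. The gene positions in the files were those of GRCm38 for 92.6% of genes, so GRCm38 coordinates were used. The deposited values are FPKM per gene and library, made by the authors, and the methods of the study name RPKM. Whole reads were recovered from the FPKM steps (tolerance 0.02 reads, widened with the count for rounding in the files) with gene lengths from the annotation, or, for 9 listed genes (Vpreb1, Vpreb2, Il7r, Mzb1, Tnfrsf13c and 4 markers of other cells), with the length that gave whole reads in all 4 libraries.

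The 10779 genes whose mean reached 1 FPKM were tested on log2(FPKM + 1) with limma 3.58.1 (trend, R 4.3.3), two-sided, with Benjamini-Hochberg adjustment over all of them. Only the 2 cko libraries were compared with the 2 wt libraries, with no covariate, at the study's thresholds. The script was tested on simulated data. Of other B lineage lists, the 4 most abundant genes were named and each past the unadjusted threshold, except for a gene not reported here. The 9 genes, the 18 lists and the tests were chosen with earlier results of these data known. Rag2 and Cd3e were named after their values were seen. The alternatives were other pseudocounts, filters, scalings, a fit without trend, a replicate block, voom on recovered reads and leaving out each library. Depth limits precision, and the 95% exact intervals cover counting error only.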

Additional observations from a re-analysis of the deposited data

How the results depend on the processing

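Over the 7 tested genes and all alternatives, 80 of 86 values kept their direction and their side of the unadjusted threshold, and 3 values of Ms4a1 newly passed it: -1.23 with a pseudocount of 0.1, -1.29 with 0.01 and -1.30 with voom on recovered reads. Changing the filter or the trend, or adding the replicate block, leaves the log2 fold changes as they were. The values of those settings could not change direction, so the count of 80 overstates stability. Ebf1, near 0 throughout, reversed to 0.11 with the erythroid and hepatocyte genes removed and the FPKM sums made equal. It also reversed to 0.01 without wt 2 and to 0.050 without cko 1 (-0.059 to 0.050 with 1 library left out). The early minus later difference of 0.12 moved to -0.050 with a pseudocount of 0.1, -0.21 with 0.01 and -0.23 with voom, and ranged from -0.029 without wt 2 to 0.27 without wt 1. It had no value with a minimum mean of 5 FPKM, which no early gene reached. Genes past the unadjusted threshold numbered 247 (203 higher, 44 lower), 126 with a minimum mean of 5 FPKM, and, with 1 library left out, from 136 without cko 2 to 472 without cko 1, with 151 without wt 1 and 279 without wt 2, of which 76 were lower. With median-of-ratios scaling there were 214, of which 72 were lower. With the erythroid and hepatocyte genes removed and the FPKM sums made equal there were 368, of which 17 were lower. These scalings moved the median of all genes from 0.09 to -0.01 and 0.27. Genes past the adjusted threshold numbered 0 in every setting but voom, which gave 2. The B lineage genes lower at an unadjusted p under 0.05 numbered 3, and 4 with median-of-ratios scaling, 2 with no filter, the replicate block, voom, without wt 2 or without cko 2, and 1 with a minimum mean of 5 FPKM (of 2 tested), with the erythroid and hepatocyte genes removed, or without cko 1. The replicate block gave 0 and 258 genes past the adjusted and unadjusted thresholds. The replicate numbers are not said to pair the libraries. Over the tested genes, the wt 1 minus wt 2 difference and the cko 1 minus cko 2 difference had a correlation of -0.16. The counts of genes with groups apart without each library or after rescaling were added after the data were seen. The cause of these moves was not tested. Depth limits Rag1 and Pax5, with 3 to 65 reads a library.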

Other observations

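In some B lineage genes, picked after their values were seen, replicate 2 was higher than replicate 1 in both groups. Il7r, which encodes the interleukin-7 receptor chain of B progenitors, was at 0.393 FPKM in wt 1 and 2.10 in wt 2, and at 0.333 in cko 1 and 1.20 in cko 2. Blk, a Src family kinase of B cells, was at 1.03 and 2.78 FPKM in wt and at 0.989 and 2.22 FPKM in cko. Cd22, an inhibitory receptor of B cells, was at 0.268 and 0.927 FPKM in wt and at 0.413 and 0.740 FPKM in cko. Irf4, a factor of light chain rearrangement and plasma cells, was at 0.523 and 1.57 FPKM in wt and at 0.468 and 1.01 FPKM in cko. Of the 9 B lineage genes, 5 were higher in replicate 2 in both groups (Rag1, Ebf1, Cd79a, Cd79b and Pax5) and 0 were lower in both. Over all 24706 genes, 19.4% were higher and 15.5% lower in replicate 2 in both groups. Over the 10779 tested genes these shares were 23.8% and 18.4%. Of the 16 receptor signalling genes 8 were higher in both and 0 lower, of the 11 early lymphoid and recombination genes 5 were higher and 1 lower, and of the 15 transcription factors 5 were higher and 1 lower. Vpreb1, Vpreb2 and Igll1 were not higher in replicate 2 within wt. The replicate numbers are not said to mark a shared litter or day, and no test was made.

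Bank1, an adaptor of B cell receptor signalling, was at 3.21 and 3.26 FPKM in wt and at 1.85 and 1.70 FPKM in cko (log2 fold change -0.61, adjusted p = 0.251, limma). Bcl11a, a factor needed for B cell formation, was at 1.61 and 2.65 FPKM in wt and at 1.13 and 1.02 FPKM in cko (log2 fold change -0.57, unadjusted p = 0.0798, adjusted p = 0.352, limma). Both were picked after their values were seen, from lists whose median log2 fold changes were 0.35 and 0.18.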
